A study of Mus musculus with 12 samples.

Results

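Disc1 and 9 genes for proteins of its scaffold (Ndel1, Nde1, Pafah1b1, Fez1, Pcm1, Tnik, Kalrn, Pde4b and Pde4d) were described in the mouse hippocampus. The genes were chosen by name, and each of the 10 had 1 row among the 23382 rows of the deposited expression table. RNA from hippocampus was sequenced in 12 libraries that form 4 groups of 3: control mice given vehicle, control mice given Δ9-THC (tetrahydrocannabinol, the cannabis compound that activates cannabinoid receptors; THC below), DISC1 mutant mice given vehicle and DISC1 mutant mice given THC. All groups share a C57BL/6 background. The mutants are labelled aDN-DISC1. This line is known to express a truncated human DISC1 intended to act as a dominant negative, and the series title places the vulnerability in astrocytes and the THC exposure in adolescence. The promoter that drives the transgene, the dose of THC and the age and sex of the mice are not given in the sources used here, and the labels of control libraries hold no genotype entry beyond their titles. Each title ends in its own number, but nothing in the labels says that the 3 libraries of a group came from separate mice. Tissue markers differed between the mutant THC libraries, as given below. How far the spread that the p-values rest on is technical is not known.

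DISC1 is a scaffold protein that holds together proteins of the centrosome, of microtubule transport and of the synapse. LIS1 (the product of Pafah1b1) and the paired proteins NDEL1 and NDE1 regulate the motor dynein and are needed for neuronal migration. FEZ1 links cargo to kinesin, PCM1 builds the satellites around the centrosome, and kalirin and TNIK act at dendritic spines. The phosphodiesterases PDE4B and PDE4D degrade the second messenger cAMP, and DISC1 binds and restrains them.

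Total expected counts were 33165903 to 41389957 per library. Neurons, astrocytes and hippocampal subfields were present in every library by their markers, and no marker of any of 11 lists was at 0 in any library. Some libraries held more RNA of neighbouring tissue. The 8 choroid plexus markers summed to 318 to 397 CPM (expected counts scaled to a common library total) in controls given vehicle and 319 to 8671 in those given THC, and in mutants to 6029 to 16560 and 323 to 10166. The 8 markers of striatal medium spiny neurons summed to 83.7 to 86.4, 77.1 to 106, 93.7 to 380 and 92.3 to 3038 CPM in the same order, the highest values being those of mutant vehicle 3 and mutant THC 3. In tissue RNA, fewer cells of a type and less RNA per cell cannot be told apart.

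None of the 10 genes differed between groups past the threshold in any of 7 comparisons (edgeR quasi-likelihood test, Benjamini-Hochberg over 15802 genes, adjusted p under 0.05). Counts at an unadjusted p under 0.05 were 0 to 2 of the 10 genes per comparison, and DESeq2 and limma-voom also called none of the 10. Over all genes DESeq2 called 768 for genotype under vehicle, 778 for averaged genotype and 3 to 40 in the other comparisons. For genotype under vehicle and under THC limma-voom called 0. All 10 genes passed the filter on low counts. Over the whole table the edgeR test called 0% of genes for either THC effect, for the interaction and for the averaged THC effect. It called 0.00633% for the genotype effect under vehicle, under THC and averaged over treatments. By the edgeR test, genes of the scaffold therefore stood where nearly all genes stood. The values below describe levels, spread and the sizes that the data allow. In simulated counts the test recovered 40.3% to 52.2% of 1.5-fold changes and 70.1% to 76.1% of 2-fold changes in pairwise comparisons. For the interaction it recovered 26.9% and 56.7%. Over the whole table, changes of such sizes can therefore go uncalled. For Ndel1, Nde1, Pafah1b1, Fez1, Pcm1, Tnik and Pde4d, the 95% confidence intervals were narrower than such changes in the pairwise comparisons. They lay between -0.43 and 0.38 on the log2 scale, so a 1.5-fold change in either direction was outside them. Intervals of Disc1, Kalrn and Pde4b included a 1.5-fold change in some pairwise comparisons.

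**Figure D1:**
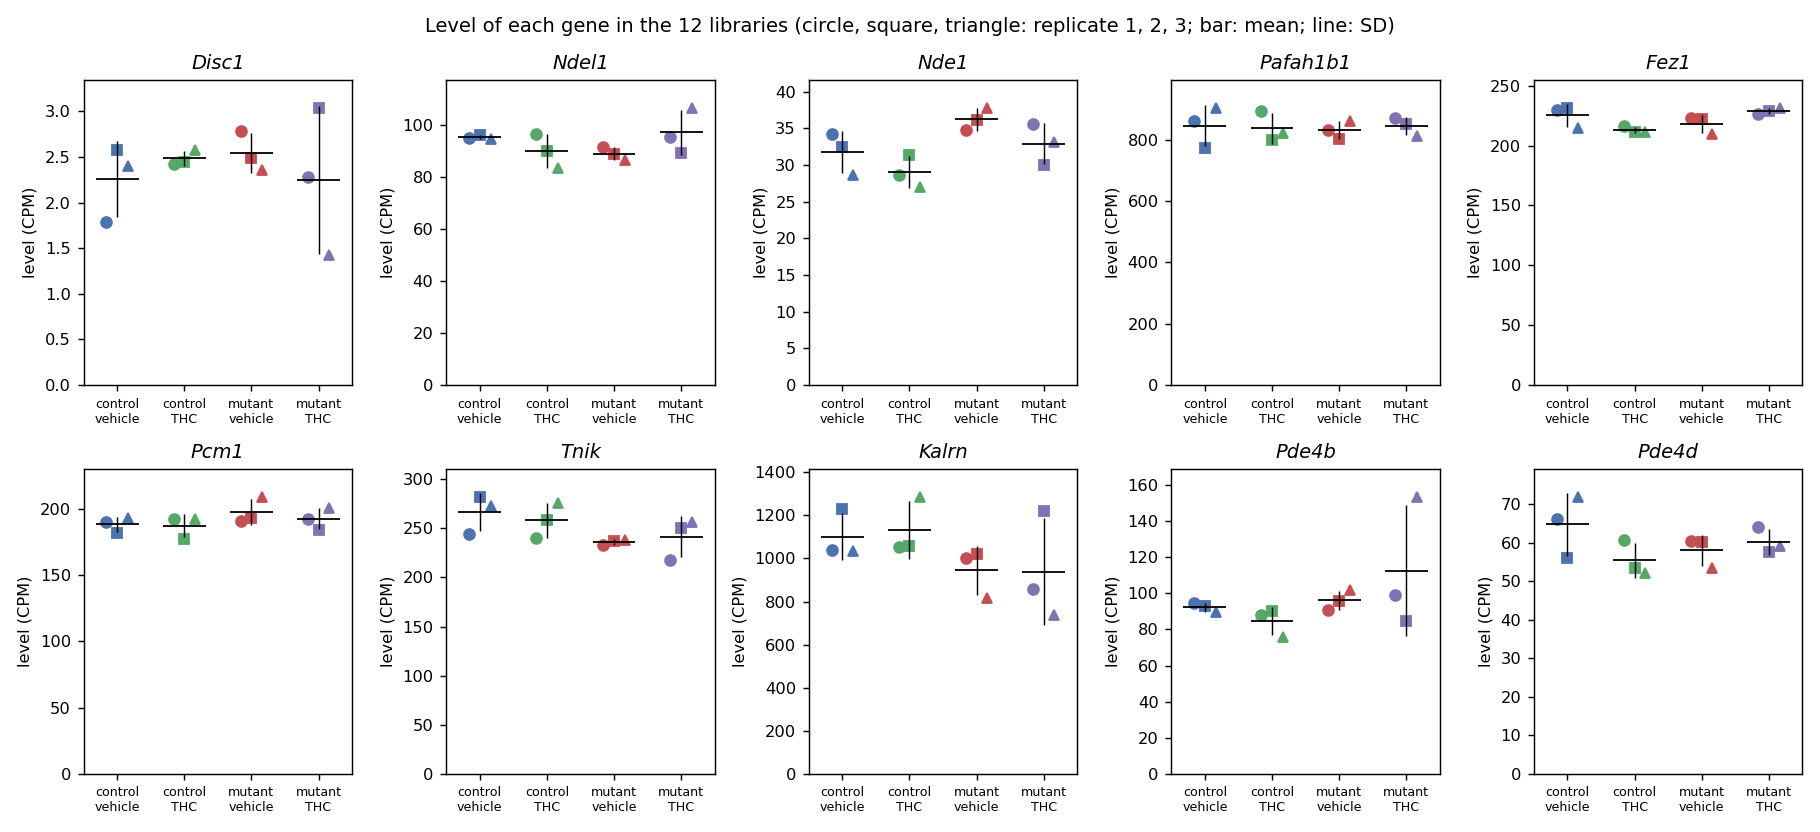
Level of each of the 10 genes (CPM, axis from 0) in the 12 libraries, by group; circle, square and triangle mark replicates 1, 2 and 3, the bar is the mean and the line the SD (n = 3). Groups overlap in most panels. Mutant THC 3 is the lowest library for Disc1 (1.42 CPM) and Kalrn (740 CPM) and stands apart for Pde4b (154 CPM).

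Levels of the scaffold genes spanned a wide range per transcript length. The length used was the mean of the transcripts in each row (GENCODE M21), without weighting for the isoform in use. Transcripts ran from 4380 to 12276 bases for Tnik and from 1374 to 4304 for Pde4b. The ranks below therefore depend on the isoform, and the SDs cover only the spread between libraries. Over the 12 libraries Fez1 was highest at 172 ± 6.48 CPM per kb (SD, n = 12), followed by Pafah1b1 at 145 ± 6.98 and Kalrn at 134 ± 21.6. Pafah1b1 and Kalrn did not differ beyond their spread. A middle class held Tnik at 39.4 ± 3.05, Ndel1 at 39.0 ± 2.51 and Pde4b at 37.6 ± 7.51 CPM per kb, with no separation among the 3. Pcm1 at 28.9 ± 1.25, Pde4d at 23.3 ± 2.26 and Nde1 at 16.9 ± 1.77 followed. Disc1, the gene that names the scaffold, was lowest at 0.953 ± 0.169 CPM per kb.

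The genes also differed in how steady they were. The highest library exceeded the lowest by 1.11-fold for Fez1, 1.17-fold for Pafah1b1 and 1.18-fold for Pcm1, and by 2.14-fold for Disc1, 2.03-fold for Pde4b and 1.74-fold for Kalrn. On the log2 CPM scale the SD over 12 libraries was 0.05 for Fez1, 0.06 for Pcm1 and 0.07 for Pafah1b1, where the median of all genes tested was 0.16. Disc1, Pde4b and Kalrn were above that median, at 0.28, 0.24 and 0.24. A lower SD than that of Fez1, Pcm1 and Pafah1b1 was found for 3.75%, 6.70% and 10.2% of genes. The share was 21.6% for Ndel1 and 48.3% for Nde1, whose SD of 0.15 was near the median.

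Disc1 lies on chromosome 8 (chr8:125048767-125265143, GRCm38.p6, the assembly of mm10) and was counted on 2 RefSeq transcripts. Its start region is shown because it belongs to the gene for which the mutant line is named (chr8:125053945-125054244, plus strand, RefSeq on GRCm38.p6, 250 bases before to 50 after the start; capitals mark GGGCGG, the GC box). It was 71% G or C, where the median of 32851 promoter windows was 52.7%, and held 2 GC boxes, where 35.7% of windows hold at least 1 on either strand.

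Disc1: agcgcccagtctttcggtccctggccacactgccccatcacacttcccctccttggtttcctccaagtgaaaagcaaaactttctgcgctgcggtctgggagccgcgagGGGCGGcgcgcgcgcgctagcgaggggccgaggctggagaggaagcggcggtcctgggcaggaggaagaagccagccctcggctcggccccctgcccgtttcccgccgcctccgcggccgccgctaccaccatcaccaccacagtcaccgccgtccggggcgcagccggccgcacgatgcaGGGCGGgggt

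Disc1 was counted 55 to 107 times per library. It was at 1.79, 2.58 and 2.40 CPM in control vehicle 1 to 3 and at 2.42, 2.45 and 2.58 CPM in control THC. In mutant vehicle it was at 2.78, 2.49 and 2.36 CPM, and in mutant THC at 2.28, 3.04 and 1.42 CPM. The groups overlapped, and mutant THC held both the highest and the lowest of the 12 values. Those extremes differed by more than counting error: the exact 95% Poisson interval was 2.49 to 3.68 CPM in mutant THC 2 and 1.07 to 1.85 CPM in mutant THC 3. The mutants did not differ from controls in the counts of this row by more than the spread, with a log2 fold change of 0.01 ± 0.17 averaged over treatments (SE, 95% confidence interval -0.36 to 0.39). The value was 0.30 with the choroid plexus and striatal marker scores as covariates, 0.14 without mutant THC 3 and -0.13 without mutant THC 2, and none of these passed (lowest adjusted p 0.60). Because choroid plexus markers separated the vehicle groups, the fit with covariates cannot fully tell genotype from tissue content. Whether reads of the human transgene entered the mouse row was not tested, so these counts do not check the genotype labels.

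Pafah1b1, Ndel1 and Nde1 form the dynein regulator group. Pafah1b1 and Ndel1 both lie on chromosome 11 (chr11:74673949-74724384 and chr11:68821434-68853146, GRCm38.p6) and Nde1 on chromosome 16 (chr16:14163275-14192928). Pafah1b1, which encodes LIS1, was at 862, 772 and 905 CPM in control vehicle and at 895, 799 and 822 CPM in control THC. Mutant libraries lay at 831, 804 and 862 CPM under vehicle and at 872, 851 and 814 CPM under THC. All 4 groups overlapped, and the genotype effect averaged over treatments was -0.01 ± 0.05 (95% interval -0.12 to 0.10 on the log2 scale). Levels of LIS1 RNA therefore varied within a narrow band across genotype and treatment.

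Ndel1 was at 94.9, 96.3 and 94.8 CPM in control vehicle and at 91.6, 88.7 and 86.7 CPM in mutant vehicle. The 3 mutant values were below the 3 control values, which happened in the downward direction for 12.7% of all genes in this comparison. Ndel1 was at 96.7, 90.1 and 83.6 CPM in control THC and at 95.3, 89.4 and 107 CPM in mutant THC, with overlapping groups. The difference under vehicle did not pass the test (log2 fold change -0.10 ± 0.07, edgeR adjusted p = 0.48).

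Nde1, the paralog of Ndel1 that acts mainly in dividing progenitors, was at 34.2, 32.5 and 28.7 CPM in control vehicle and 28.7, 31.3 and 27.0 CPM in control THC. In mutants it was at 34.7, 36.1 and 37.8 CPM under vehicle and at 35.6, 30.0 and 33.2 CPM under THC. Mutant vehicle lay above control vehicle in all 3 libraries, which 15.3% of genes did in this direction. Averaged over treatments Nde1 had the smallest p-value of the 10 genes for genotype (log2 fold change 0.19 ± 0.06, 95% interval 0.05 to 0.32, edgeR adjusted p = 0.16) and did not pass. With the choroid plexus and striatal marker scores as covariates this value was 0.06, and under vehicle it was -0.00. Choroid plexus markers separated the vehicle groups (at most 397 CPM in controls, 6029 CPM or more in mutants). Under vehicle such a fit can therefore not tell genotype from tissue content. The 6 oligodendrocyte and myelin markers summed to 6021, 6389 and 6797 CPM in mutants given vehicle and to 5445, 5527 and 4332 CPM in controls given vehicle, without overlap. They summed to 3349 CPM in control THC 3 and 4422 CPM in mutant THC 2, which had low Nde1, and to 7104 CPM, the highest sum, in mutant THC 3, where Nde1 was at 33.2 CPM. The part of these markers in the Nde1 values was not tested. Nde1 averaged over genotypes was lower under THC by -0.14 ± 0.06 (adjusted p = 0.81).

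The start regions of the paralog pair are shown for comparison (Nde1 chr16:14163025-14163324, plus strand; Ndel1 chr11:68853086-68853385, minus strand; GRCm38.p6, RefSeq, each read 5′ to 3′ along its gene). Capitals mark TGACG, the core of the cAMP response element, and GGGCGG, each on either strand, with no overlap counted between the motifs. TGACG was in 20.8% of all windows. The window of Ndel1 held 3 matches to TGACG and 3 GC boxes, and that of Nde1 held 0 and 1.

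Nde1: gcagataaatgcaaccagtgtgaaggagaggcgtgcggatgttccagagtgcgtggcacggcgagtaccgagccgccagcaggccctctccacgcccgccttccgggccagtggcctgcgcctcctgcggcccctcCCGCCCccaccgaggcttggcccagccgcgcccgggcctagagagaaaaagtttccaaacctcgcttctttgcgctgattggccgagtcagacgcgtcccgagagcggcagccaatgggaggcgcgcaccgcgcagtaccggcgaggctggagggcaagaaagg

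Ndel1: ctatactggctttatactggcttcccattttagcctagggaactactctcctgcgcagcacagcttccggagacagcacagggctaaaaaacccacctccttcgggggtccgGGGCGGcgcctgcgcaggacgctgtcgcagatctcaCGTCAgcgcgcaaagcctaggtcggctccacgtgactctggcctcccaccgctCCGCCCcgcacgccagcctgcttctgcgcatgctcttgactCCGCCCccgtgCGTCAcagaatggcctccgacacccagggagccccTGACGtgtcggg

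The balance of the pair was compared within libraries, where depth cancels. The log2 ratio of Ndel1 to Nde1 counts was 1.47, 1.57 and 1.73 in control vehicle and 1.75, 1.53 and 1.63 in control THC. It was 1.40, 1.30 and 1.196 in mutants given vehicle and 1.42, 1.58 and 1.69 in those given THC. Mutant vehicle was the lowest group, with its 3 libraries below every other library. Averaged over treatments the ratio was 1.61 in controls and 1.43 in mutants, a difference of -0.18 (exact permutation test within treatment, 2-sided, 400 arrangements, p = 0.035, adjusted p = 0.14 over 4 tests). Averaged over genotypes it was 1.44 under vehicle and 1.60 under THC (exact permutation p = 0.075, adjusted p = 0.15). Neither passed after adjustment. Without any 1 library the genotype difference stayed between -0.21 and -0.15. Choroid plexus markers summed to 6029 CPM or more in all 3 mutant vehicle libraries and to at most 397 CPM in control vehicle. The oligodendrocyte and myelin sums separated the same groups, and the part of either marker list in the ratio was not tested.

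**Figure D2:**
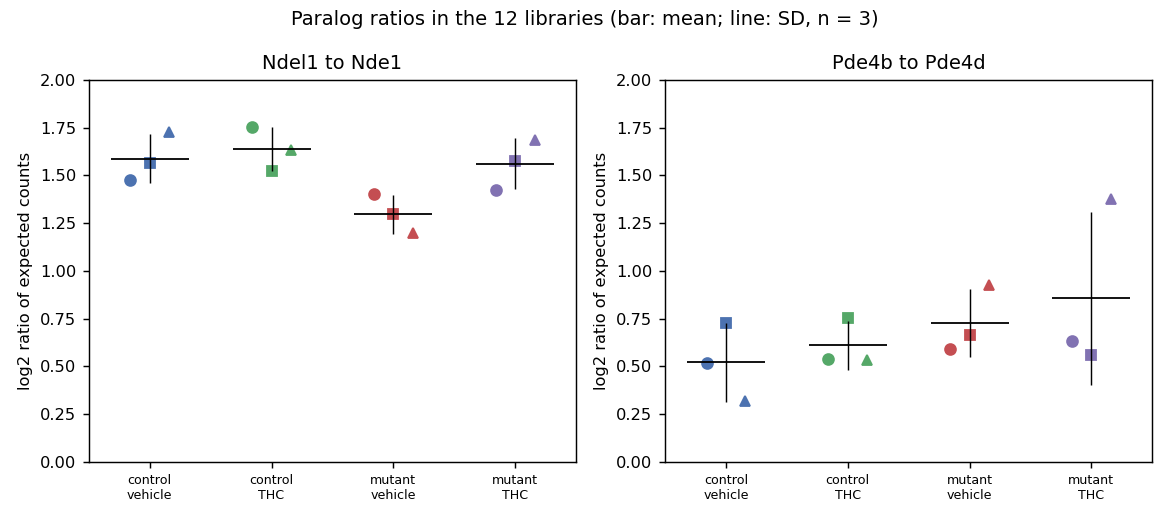
Log2 ratio of expected counts of Ndel1 to Nde1 (left) and Pde4b to Pde4d (right) in the 12 libraries, by group; bars are means and lines SDs (n = 3). The Ndel1 to Nde1 ratio lies at 1.196 to 1.40 in mutant vehicle, below the other groups, and the Pde4b to Pde4d ratio reaches 1.38 in mutant THC 3.

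Fez1 (chr9:36821398-36878926) and Pcm1 (chr8:41239484-41334088) serve transport and the centrosome. Fez1, whose product couples cargo to kinesin in axons, was at 229, 232 and 215 CPM in control vehicle and at 216, 211 and 212 CPM in control THC. Mutants lay at 223, 222 and 210 CPM under vehicle and at 226, 229 and 231 CPM under THC. The 3 mutant THC libraries were above the 3 mutant vehicle and the 3 control THC libraries, in directions that 4.07% and 4.83% of all genes showed. The differences were small, with log2 fold changes of 0.07 ± 0.05 (adjusted p = 0.82) and 0.10 ± 0.05 (adjusted p = 0.55), and did not pass. The interaction was 0.15 ± 0.07 (edgeR adjusted p = 0.76). Without mutant THC 3 the value against control THC was 0.09.

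Pcm1, the core component of centriolar satellites, was at 190, 182 and 193 CPM in control vehicle and at 192, 177 and 192 CPM in control THC. In mutants it was at 191, 193 and 209 CPM under vehicle and at 193, 184 and 200 CPM under THC. All groups overlapped. The largest of its 7 fold changes was 0.07 ± 0.06 on the log2 scale, for genotype under vehicle (adjusted p = 0.54).

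Tnik (chr3:28261901-28670585) and Kalrn (chr16:33969073-34573277) encode spine signalling enzymes. Tnik, a kinase of the postsynaptic density that also acts in Wnt signalling, was at 245, 282 and 273 CPM in control vehicle and at 233, 238 and 238 CPM in mutant vehicle. The mutant values were below the control values without overlap, as for 12.7% of genes. Tnik was at 240, 259 and 276 CPM in control THC and at 218, 250 and 257 CPM in mutant THC, where the groups overlapped. The log2 fold change was -0.18 ± 0.08 under vehicle (adjusted p = 0.27) and -0.14 ± 0.06 averaged over treatments (adjusted p = 0.20), and neither passed. With the marker scores as covariates the value under vehicle was -0.10. Choroid plexus markers separated the vehicle groups, so genotype and tissue content cannot be told apart there.

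Kalrn encodes kalirin, an exchange factor for Rac that shapes spines. It was at 1040, 1227 and 1034 CPM in control vehicle and at 1055, 1057 and 1287 CPM in control THC. In mutants it was at 1001, 1019 and 815 CPM under vehicle and at 857, 1218 and 740 CPM under THC. Mutant vehicle lay below control vehicle in all 3 libraries, as for 12.7% of genes, and mutant THC held both a high and the lowest value. Averaged over treatments the log2 fold change for genotype was -0.25 ± 0.12 (95% interval -0.51 to 0.02, edgeR adjusted p = 0.26). It passed only when mutant THC 2 was left out (-0.36, adjusted p = 0.045), in a fit that called 942 genes.

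Kalrn followed the hippocampal subfield markers from library to library. The 8 subfield markers summed to 458, 581 and 601 CPM in mutant THC 3, mutant vehicle 3 and mutant THC 1, the 3 libraries with the lowest Kalrn. They summed to 856, 816 and 755 CPM in control THC 3, mutant THC 2 and control vehicle 2, the 3 libraries with the highest Kalrn. The part of these markers in the Kalrn values was not tested. With the choroid plexus and striatal scores as covariates the averaged genotype value of Kalrn was 0.05 (edgeR adjusted p = 0.998). Because choroid plexus markers separated the vehicle groups, this fit cannot fully tell genotype from tissue content.

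Pde4b (chr4:102087332-102607275) and Pde4d (chr13:108654177-109955969) are the cAMP phosphodiesterases of the scaffold. Pde4b was at 94.6, 92.8 and 89.7 CPM in control vehicle and at 88.1, 90.3 and 75.7 CPM in control THC. In mutants it was at 91.0, 95.6 and 102 CPM under vehicle and at 99.3, 84.8 and 154 CPM under THC. The 11 libraries other than mutant THC 3 thus lay between 75.7 and 102 CPM, and mutant THC 3 stood apart. The genotype effect under THC was 0.41 ± 0.17 on the log2 scale (95% interval 0.03 to 0.80, edgeR adjusted p = 0.55). It was 0.12 without mutant THC 3 and 0.09 with the marker scores as covariates. The THC effect in mutants was 0.23 ± 0.17 with all libraries and -0.06 without mutant THC 3.

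Pde4d was at 66.2, 56.04 and 71.98 CPM in control vehicle and at 60.7, 53.5 and 52.2 CPM in control THC. In mutants it was at 60.5, 60.2 and 53.4 CPM under vehicle and at 64.0, 57.6 and 59.1 CPM under THC. All groups overlapped, and mutant THC 3 lay within the others. The THC effect in controls was -0.22 ± 0.10 (95% interval -0.43 to -0.01, adjusted p = 0.70), the only one of the 10 genes at an unadjusted p under 0.05 in that comparison, where 7% of all genes were. It was -0.32 without control vehicle 2 and -0.14 without control vehicle 3. The log2 ratio of Pde4b to Pde4d was 0.52 ± 0.21 in controls given vehicle and 0.61 ± 0.13 in those given THC, and in mutants 0.73 ± 0.18 and 0.86 ± 0.45 (SD, n = 3). The averaged genotype difference was 0.23 (exact permutation p = 0.155, adjusted p = 0.21) and the averaged THC difference 0.11 (p = 0.555, adjusted p = 0.56).

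1 of 4 start regions of Pde4b in the RefSeq table is shown, the one that holds the core of the cAMP response element, chosen for that match (chr4:102421305-102421604, plus strand, GRCm38.p6; capitals mark TGACG on either strand). The other 3 windows of Pde4b and that of Pde4d held no TGACG.

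Pde4b: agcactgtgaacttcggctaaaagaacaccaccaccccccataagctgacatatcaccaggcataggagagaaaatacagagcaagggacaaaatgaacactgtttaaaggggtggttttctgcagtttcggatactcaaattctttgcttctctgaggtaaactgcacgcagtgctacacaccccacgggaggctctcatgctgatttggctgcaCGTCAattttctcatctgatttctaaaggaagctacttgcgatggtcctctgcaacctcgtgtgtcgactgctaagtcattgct

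Across comparisons the 10 genes as a group sat close to the rest of the table. For THC in controls 2 were higher and 8 lower, with a median log2 fold change of -0.06 beside 0.00 for all genes, and none of the 10 had groups without overlap, where 16.4% of all genes did. For THC in mutants 6 were higher and 4 lower, with a median of 0.03 beside -0.01, and 1 of 10 had groups without overlap beside 8.47% of all genes. No gene of the 10 was at an unadjusted p under 0.05 there, beside 5.73%. For genotype under vehicle the median was -0.03 beside -0.01. Groups did not overlap for 4 of 10 genes in that comparison (Nde1 above, and Ndel1, Tnik and Kalrn below), beside 28% of all genes. Only Tnik was at an unadjusted p under 0.05, beside 17.8% of all genes. For genotype under THC the median was 0.07 beside 0.01, 1 of 10 did not overlap beside 10.5%, and 1 of 10 was at an unadjusted p under 0.05 (Pde4b) beside 8.98%.

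The difference between the THC effects in the 2 genotypes was tested as an interaction. Its median over the 10 genes was 0.06 beside 0.00 for all genes, with 6 above and 4 below 0. Fez1 was the only one of the 10 at an unadjusted p under 0.05, beside 6.59% of all genes. The largest values were Pde4b at 0.35 ± 0.25, Disc1 at -0.32 ± 0.34 and Pde4d at 0.28 ± 0.14 (edgeR adjusted p of 0.80, 0.88 and 0.76). Intervals were widest for Disc1 (-1.07 to 0.43) and narrowest for Fez1 (0.00 to 0.30). For the averaged effects, 1 of 10 was at an unadjusted p under 0.05 for THC (Nde1) beside 6.05%, and 2 of 10 for genotype (Nde1 and Tnik) beside 21.2%.

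**Figure D3:**
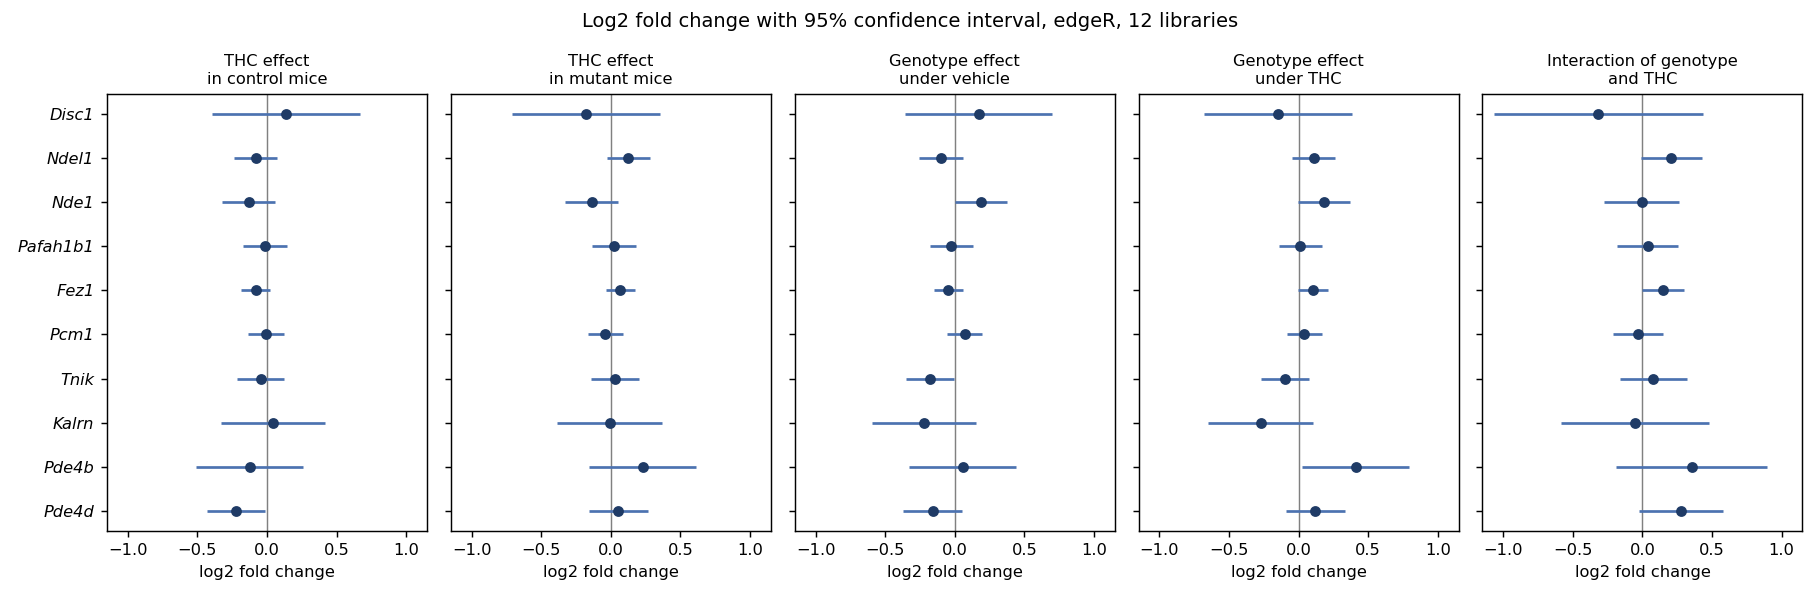
Log2 fold change (points) with 95% confidence interval (lines) of the 10 genes in 4 pairwise comparisons and the interaction, from the edgeR fit over 12 libraries. Nearly all intervals include 0, and they are widest for Disc1, Kalrn and Pde4b.

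The library mutant THC 3 was the extreme of the 12 for 4 of the 10 genes. How many of all genes had their extreme in this library was not counted, so this is a description only. It was lowest in Disc1 (deviation from the mean of the 12 libraries -0.70 on the log2 CPM scale) and Kalrn (-0.46), and highest in Pde4b (0.69) and Ndel1 (0.20). The other 6 genes deviated there by -0.04 to 0.07. This library also had the highest sum of striatal markers (3038 CPM) and the lowest sum of hippocampal subfield markers (458 CPM). Mutant vehicle 3, with the next highest striatal sum at 380 CPM, was at 0.10 for Pde4b, -0.32 for Kalrn and 0.01 for Disc1, and at -0.10 for Ndel1, opposite to mutant THC 3. The part of the striatal markers in these deviations was not tested. With all libraries the interaction was 0.35 for Pde4b, -0.32 for Disc1 and 0.21 for Ndel1. Without mutant THC 3 the interaction was 0.06 for Pde4b, -0.07 for Disc1 and 0.13 for Ndel1. With the choroid plexus and striatal scores as covariates it was 0.27 for Pde4b, -0.36 for Disc1 and 0.18 for Ndel1.

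**Figure D4:**
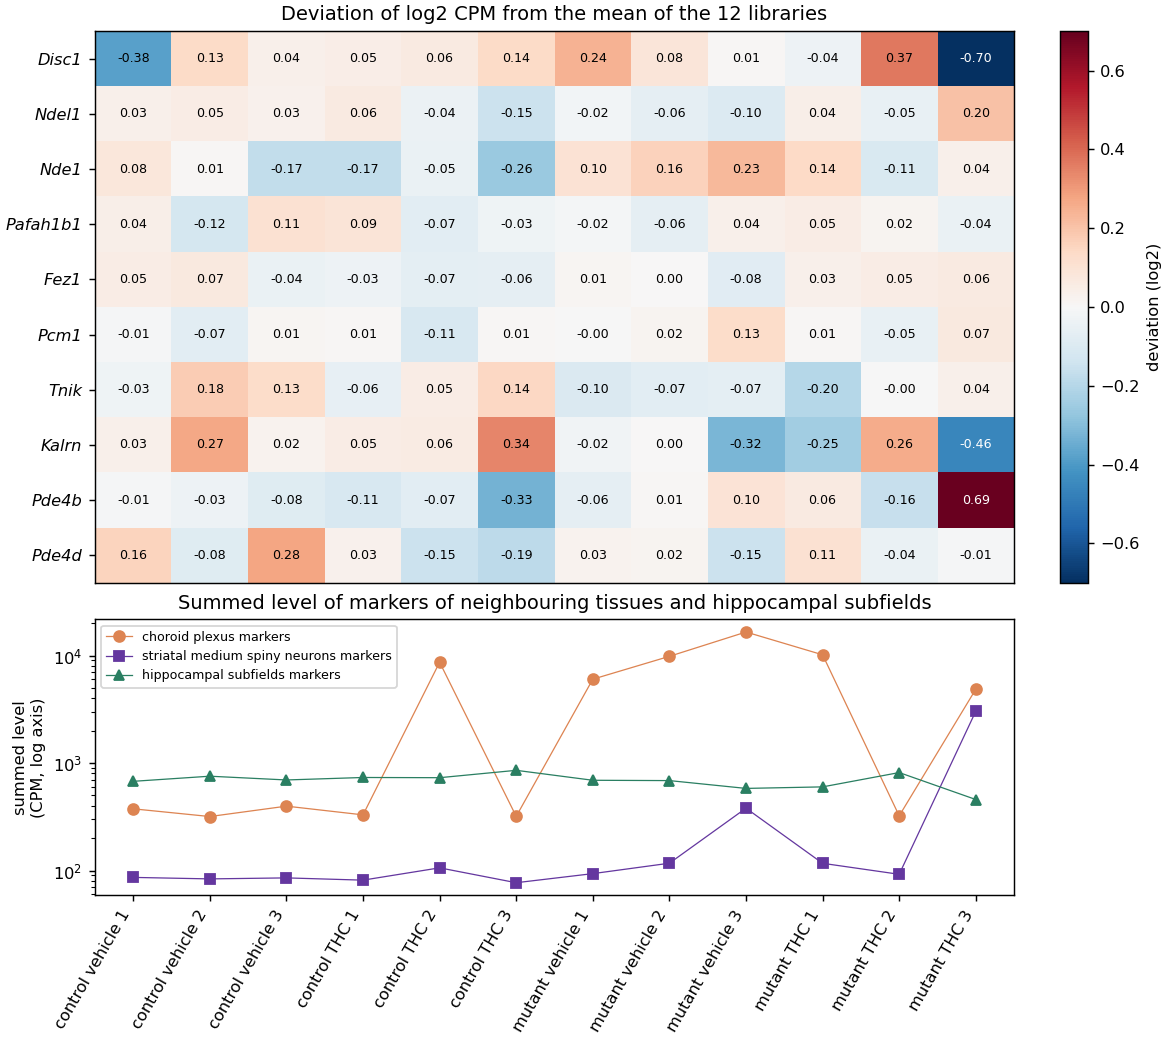
Top: deviation of log2 CPM from the mean of the 12 libraries for each of the 10 genes (blue lower, red higher). Bottom: summed CPM (log axis) of choroid plexus, striatal and hippocampal subfield markers in the same libraries; mutant THC 3 combines the highest striatal sum, 3038 CPM, with deviations of -0.70 for Disc1 and 0.69 for Pde4b.

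Genes with the pattern most like each scaffold gene were found by Pearson correlation (r) of log2 CPM over the 12 libraries among 14056 genes at 1 CPM or more. These are descriptions, since libraries share tissue content and the genes were picked as the highest of many. Nde1 was most like Cd81, a tetraspanin gene (r = 0.98, Spearman's rho = 0.98), Reep3 (r = 0.98, rho = 0.97) and Clu, the clusterin gene (r = 0.96, rho = 0.97). Kalrn was most like Dgkd, a diacylglycerol kinase gene (r = 0.99, rho = 0.90), Gria1, which encodes an AMPA receptor subunit (r = 0.98, rho = 0.92), and Slc2a6 (r = 0.97, rho = 0.90). Pde4b was most like Abat, the GABA transaminase gene (r = 0.99, rho = 0.95), Acy1 (r = 0.98, rho = 0.93) and Cep126 (r = 0.98, rho = 0.84). These 9 correlations were 0.91 to 0.99 without mutant THC 3.

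For the other 7 genes the closest matches were at r of 0.88 to 0.94. Disc1 was most like Lats2, a Hippo pathway kinase gene (r = 0.93), the ghrelin receptor gene Ghsr (r = 0.91) and Cyp26b1, a retinoic acid hydroxylase gene (r = 0.90), and these were 0.82, 0.79 and 0.75 without mutant THC 3. Ndel1 was most like Fam160b2, Oprd1 and Ppm1a (r = 0.94 each), and Pafah1b1 like Rab9b and Purb (r = 0.93 and 0.91). Fez1 was most like Plcb2, Ptafr and Ap4m1 (r = 0.89, 0.88 and 0.88), and Pcm1 like Ube3a, Strn3 and Ppp1cb (r = 0.93, 0.91 and 0.90). Tnik was most like Ralgps2, Ankrd10 and Fancg (r = 0.93, 0.92 and 0.92). Pde4d was like 6330403K07Rik and Atp6v0b (r = 0.92 each). None of the 10 genes was among the closest 3 of another.

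The wider pathways around the scaffold held 119 genes in 7 lists, all of which were tested, and none passed the threshold in any comparison. The lists were chosen with earlier results of these data known, so their directions are descriptions. For genotype under vehicle 85 of 119 were lower in mutants, where 48.9% of all genes were higher. The median was -0.10 beside -0.01 for all genes, and 25 of 119 (21%) were at an unadjusted p under 0.05 beside 17.8% of all genes. Medians in that comparison were -0.11 for dynein and LIS1 transport (16 of 19 lower), -0.11 for kinesin and FEZ1 transport (15 of 19 lower) and -0.12 for other DISC1-binding proteins (10 of 11 lower). They were -0.14 for cAMP signalling (17 of 23 lower), -0.10 for spine signalling (12 of 16 lower), -0.03 for the centrosome and ciliary base (9 of 16 lower) and 0.02 for Wnt, GSK3 and AKT signalling (7 of 16 lower). Under THC the same lists had medians of -0.05 to 0.04. For the interaction 83 of 119 were above 0, beside 51.3% of all genes, with a median of 0.07 beside 0.00. At an unadjusted p under 0.05 were 6 of 119 (5.04%) beside 6.59%. The genotype effect under vehicle and the interaction share the vehicle libraries. Neuron markers summed to 4842 to 5469 CPM in control vehicle and to 4615 to 4759 CPM in mutant vehicle, and their part in these medians was not tested.

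**Figure D5:**
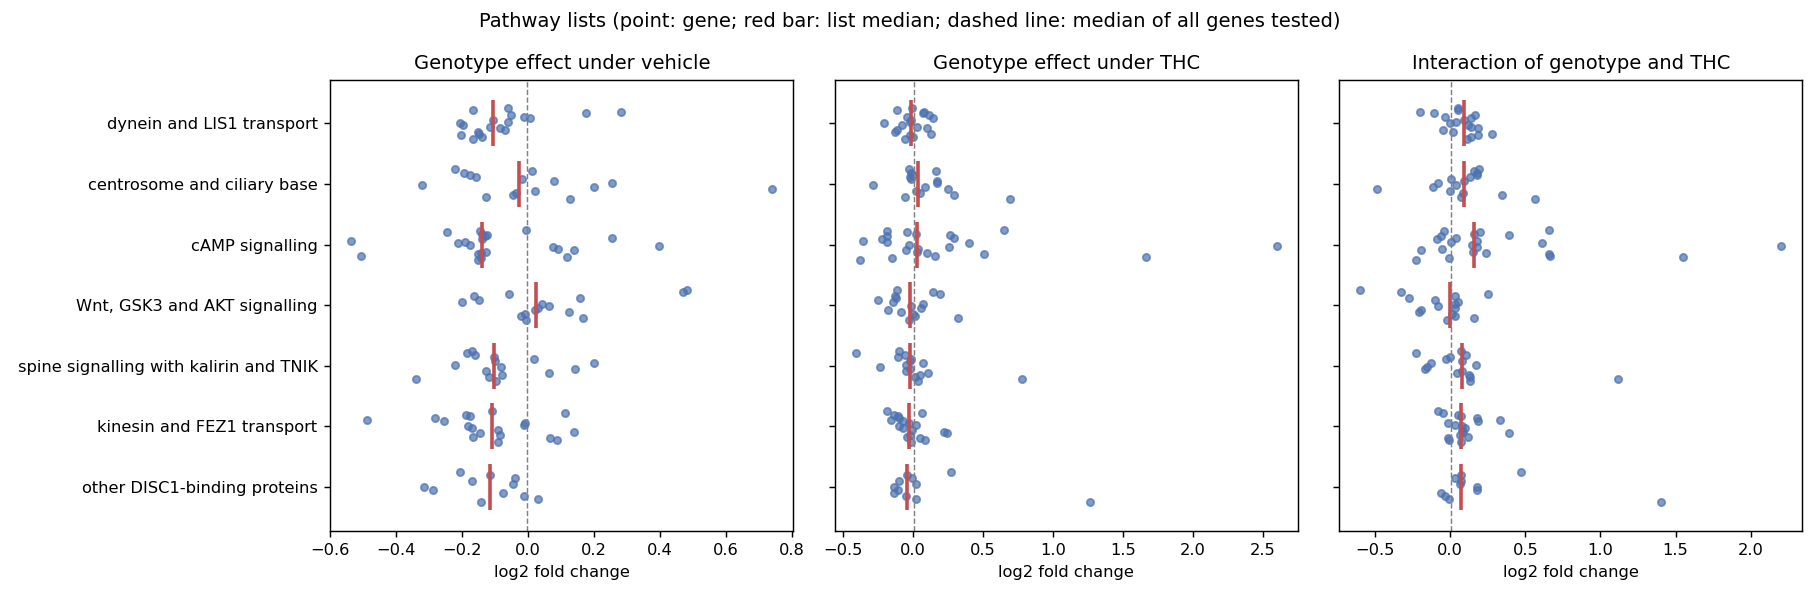
Log2 fold change of each gene (points) in 7 pathway lists for genotype under vehicle, genotype under THC and the interaction; red bars are list medians and the dashed line is the median of all genes tested. Under vehicle 6 of 7 list medians lie below 0, and the 2 genes farthest right under THC are Pde10a and Adcy5 of the cAMP list.

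The pathway genes with the smallest p-values are given with their log2 fold changes, although none passed (lowest edgeR adjusted p 0.16 for averaged genotype, 0.79 for averaged THC and 0.69 for the interaction). Among motor genes, the dynactin gene Dctn1 was at -0.14 ± 0.04 for genotype and the dynein heavy chain gene Dync1h1 at -0.11 ± 0.05 for THC. Dclk1, a doublecortin-like kinase gene, was at 0.28 ± 0.09 and Dctn3 at 0.18 ± 0.10 for the interaction. Among kinesin and synaptic fusion genes, the syntaxin gene Stx1a was at -0.33 ± 0.09 for genotype. The motor gene Kif5a was at 0.39 ± 0.21 and Stx1a at 0.33 ± 0.19 for the interaction, and Rhot2 was at 0.12 ± 0.06 for THC.

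Centrosome genes included Cep131, a satellite component that binds PCM1, at -0.31 ± 0.09 for genotype and -0.26 ± 0.09 for THC. Ccdc141 was at 0.50 ± 0.19 for genotype, Cep63 at 0.15 ± 0.06 for THC, and the pericentrin gene Pcnt and Bbs2 at 0.19 ± 0.10 and 0.34 ± 0.20 for the interaction. In the Wnt and AKT list, the Wnt transducer gene Dvl1 was at -0.17 ± 0.05 and the kinase gene Akt2 at 0.24 ± 0.07 for genotype. Axin1, a scaffold of the β-catenin destruction complex, was at 0.12 ± 0.04 for THC and -0.21 ± 0.08 for the interaction, Akt2 was at 0.16 ± 0.07 for THC and Gsk3b at 0.25 ± 0.17 for the interaction. In the spine list, Pak2, a kinase downstream of Rac, was at 0.14 ± 0.05 for genotype and 0.10 ± 0.05 for THC, and the cofilin gene Cfl1 at 0.11 ± 0.04 for THC. Trio, the exchange factor gene related to Kalrn, was at -0.13 ± 0.05 for genotype. Nck1 was at -0.17 ± 0.09 and the citron kinase gene Cit at 1.12 ± 0.45 for the interaction.

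In the cAMP list, the transcription factor gene Crem was at 0.17 ± 0.05 and the protein kinase A subunit gene Prkaca at -0.16 ± 0.05 for genotype. Atf4 and Prkar1a were at -0.09 ± 0.05 each for THC, and the anchoring protein gene Akap6 and the phosphodiesterase gene Pde2a were at 0.24 ± 0.10 and 0.61 ± 0.27 for the interaction. Among other DISC1-binding proteins, the spectrin gene Sptbn4 was at -0.23 ± 0.07 for genotype, and Grb2 and Map1a were at 0.12 ± 0.04 and -0.25 ± 0.11 for THC. Zfp365, also called DBZ, was at 0.47 ± 0.16 and the actinin gene Actn2 at 1.40 ± 0.89 for the interaction.

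Of the pathway genes named above, Actn2, Pde2a, Zfp365 and Cit had their highest level in mutant THC 3. So did Bbs2, Gsk3b, Akt2, Cep63, Akap6, Kif5a, Dctn3, Rhot2 and Cfl1. Bbs2 was at 36.5 CPM in that library and at most at 26.0 CPM elsewhere, and Gsk3b at 242 CPM beside at most 204. Akt2 was at 140 CPM beside at most 109, and Cep63 at 26.7 CPM beside at most 22.2. Actn2 was at 62.2 CPM there and at 7.90 to 13.3 CPM in the other 11 libraries. Pde2a was at 609 CPM there and at most at 384 CPM elsewhere, Zfp365 at 525 CPM beside at most 458, and Cit at 48.2 CPM beside at most 37.9. 2 further members of the cAMP list were named after their values were seen: Pde10a, the phosphodiesterase gene abundant in the striatum, was at 1527 CPM in mutant THC 3, 197 CPM in mutant vehicle 3 and 67.8 to 99.3 CPM elsewhere. The adenylyl cyclase gene Adcy5 was at 682 CPM, 133 CPM and 86.7 to 104 CPM in the same libraries. The remaining PDE4 genes did not stand apart upward in that library: Pde4a was at 23.2 CPM there and at 26.8 to 40.9 CPM elsewhere, and Pde4c was at 0.362 to 1.18 CPM in all 12.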

How the data were processed

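Per the labels' protocols, ribosomal RNA was removed from hippocampal total RNA and libraries were sequenced as paired ends of 100 bases. The authors deposited expected counts per gene, and the column names show RSEM on RefSeq transcripts of mm10. Alignment and counting tools listed in the submitters' processing notes were Bowtie2 2.2.2 and RSEM 1.2.21, besides edgeR 3.10.2, FastQC and CASAVA 1.8.4. The sources used here do not give strand use, and 27.2% to 29.4% of values per library were not whole, so reads shared between paralogs or overlapping genes are uncertain. Symbols were found for 23011 rows through RefSeq (GRCm38.p6) and 129 through GENCODE M21.

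Expected counts were rounded, filtered with filterByExpr (15802 genes) and scaled by TMM (factors 0.99 to 1.01). The quasi-likelihood test of edgeR 4.0.16 (R 4.3.3) fitted 4 group means over 12 libraries with 8 residual degrees of freedom, and p-values were adjusted over all genes by Benjamini-Hochberg (threshold 0.05). Log2 fold changes carry SEs from the F statistic. CPM values use TMM-scaled totals, and log2 CPM a prior count of 2. Poisson intervals (95%) cover counting error only. Alternatives used DESeq2 1.42.0, limma 3.58.1, other filters and scaling, marker scores as covariates and leaving out libraries. The edgeR test was also run on simulated counts for the pairwise comparisons and the interaction. The averaged effects and the alternatives were not simulated.

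The genes and lists were chosen with earlier results of these data known. The rule named all 10 scaffold genes, per pathway list the 2 genes with the smallest p-values in the averaged and interaction comparisons, and per scaffold gene the 3 most alike in pattern; some genes that the rule names are not reported here. Start regions are RefSeq windows, found for 8 of the 10 genes. The library numbers in the labels run 1 to 5 and 12 for THC and 6 to 11 for vehicle, so order and treatment cannot be told apart.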

Additional observations from a re-analysis of the deposited data

How the results depend on the processing

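No paired analysis was possible because the labels' numbers do not recur between groups. None of the 10 genes was called in any comparison under another scaling, filter, test or set of libraries, except Kalrn for genotype averaged over treatments without mutant THC 2, so the count of called scaffold genes ran from 0 to 1 there. Of 70 values (10 genes in 7 comparisons), 35 changed sign under at least 1 alternative, none while past the threshold. Counts over the whole table moved more. DESeq2 called 12 genes for THC in controls, 3 for THC in mutants, 768 for genotype under vehicle, 7 under THC, 40 for the interaction, 3 for averaged THC and 778 for averaged genotype, none of them among the 10. Fitting only the groups compared gave 523 genes for genotype under vehicle and 0 under THC, limma-voom gave 0 for both, the marker scores as covariates gave 0 under vehicle, and leaving out both libraries with striatal markers, chosen after seeing the data, gave 0 for both. The cause was not tested. Leaving out 1 library gave 0 to 3 genes for THC in mutants, 0 to 6 and 0 to 2 for genotype under vehicle and under THC, 0 to 10 for the interaction and 1 to 942 for averaged genotype, the highest counts arising without mutant THC 1 (3, 6 and 10), without mutant vehicle 1 or 3 (2) and without mutant THC 2 (942). The Pde4b to Pde4d ratio gave a genotype difference of 0.10 to 0.30 and a THC difference of -0.02 to 0.18 when 1 library was left out, and the THC difference in the Ndel1 to Nde1 ratio 0.13 to 0.19. Disc1 had the fewest counts of the 10 genes, at 55 to 107 per library.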
